A study of Mus musculus with 6 samples.

Results

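The genes described here are 5 transcription factor genes of pancreatic acinar cells (Ptf1a, Rbpjl, Bhlha15, Nr5a2 and Gata4) and 5 acinar marker genes that encode no digestive enzyme (Pdia2, Erp27, Aqp12, Gp2 and Serpini2). They were taken by symbol from a table of 19940 genes, and 10 of 10 were present, and all passed a filter of 10 reads, averaged over the groups. RNA sequencing compared pancreatic islets of pregnant C57BL6/J mice at gestational day 14.5 with islets of nonpregnant littermates, with 3 samples in each group. No further genotype or treatment and no age is given in the labels, and the series' design mentions 5 control and 5 pregnant mice. Islets were released by a Liberase TL and DNase I solution injected through the common bile duct and then picked by hand. The deposited values are 1 mean per gene and group, so no sample can be shown singly and no spread between samples can be computed. Ptf1a, at 2 nonpregnant and 67 pregnant reads, passed the filter of 10 only through its pregnant mean. How many samples each mean covers is not stated, and the counting errors given here take it as 3. Where nothing says that samples came from separate animals, the deposited p measures only the spread between these samples.

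Acinar cells make and export the digestive enzymes of the pancreas, and islets contain the hormone cells. PTF1 is a complex of the basic helix-loop-helix protein PTF1A, an E protein such as TCF3 or TCF12, and RBPJ or its acinar relative RBPJL, and it drives the enzyme genes. NR5A2 works with this complex on enzyme genes, BHLHA15 (MIST1) sets up the secretory apparatus of many exporting cells, and GATA4 is a zinc finger factor of the early pancreas that persists in acini. The digestive enzyme genes were higher in the pregnant islets, and the values below show which regulators and nonenzyme genes had a similar ratio.

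Stretches before the transcription start are shown for the complex member Rbpjl, its partner gene Ptf1a, the markers Aqp12 and Gp2, and Bhlha15, because the first 4 genes rose with the enzymes and the last did not pass the test. The sequences are RefSeq's on GRCm38.p6, written 5′ to 3′ on the strand of the gene, without bases in annotated exons. Capitals mark E-boxes (CANNTG, the sequence class bound by helix-loop-helix proteins) and the core TGGGAA of RBPJ-type binding, on either strand. The Ptf1a stretch covers positions -250 to -121 from the start, placed to hold its TGGGAA, and the others lie within -130 to -1. E-boxes of Bhlha15 at -200 and -187 fall outside its stretch. The 4 risers shown all carry a TGGGAA, but Serpini2 and Nr5a2 also rose, have none within 250 bases and are not shown. Pdia2 rose, has a TGGGAA at -223 and is not shown either.
Rbpjl, chr2:164403064-164403140, plus strand: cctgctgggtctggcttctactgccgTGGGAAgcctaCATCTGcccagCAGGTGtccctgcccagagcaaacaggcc
Ptf1a, chr2:19445413-19445542, plus strand: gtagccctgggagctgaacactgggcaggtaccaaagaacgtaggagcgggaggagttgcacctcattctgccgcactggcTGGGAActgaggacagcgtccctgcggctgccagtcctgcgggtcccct
Aqp12, chr1:93006204-93006333, plus strand: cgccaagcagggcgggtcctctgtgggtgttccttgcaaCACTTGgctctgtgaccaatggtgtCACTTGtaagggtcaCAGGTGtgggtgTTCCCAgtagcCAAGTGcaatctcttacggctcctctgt
Gp2, chr7:119459286-119459402, minus strand: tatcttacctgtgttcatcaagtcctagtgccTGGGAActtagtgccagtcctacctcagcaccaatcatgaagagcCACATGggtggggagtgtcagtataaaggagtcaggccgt
Bhlha15, chr5:144190156-144190285, plus strand: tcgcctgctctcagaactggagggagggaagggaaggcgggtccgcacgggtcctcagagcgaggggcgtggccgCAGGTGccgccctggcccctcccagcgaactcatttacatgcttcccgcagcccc

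RefSeq promoters were found for 8 of the 10 genes, with 9 starts in all because Nr5a2 has 2. Within 250 bases before a start, CANNTG was found for 7 of these 8 genes and TGGGAA for 5, against 66.2% and 21.6% of all 32851 promoters of that length. An E-box and a TGGGAA at most 30 bases apart were found for 3 genes, Rbpjl, Aqp12 and Pdia2, and in 5.72% of all promoters. In Rbpjl the TGGGAA begins at position -104 from the start, an E-box CATCTG at -93 and an E-box CAGGTG at -82. Bhlha15 has 3 E-boxes, at -200, -187 and -55, and no TGGGAA in this window. GATA cores (AGATAA or TGATAA on either strand) were present for 5 of the 8 genes and in 16.6% of all promoters. CAAGGTCA and its shorter form AAGGTCA, both cores bound by NR5A2, were found for 0 of the 8 genes and in 1.33% and 4.08% of all promoters. CAGCTG, an E-box form, was in 0 of the 8 genes and in 13% of all promoters, while CACCTG, another E-box form that reads as CAGGTG on the other strand, was in 6 of the 8 and in 17.2% of all. A gene was counted with a match at any of its starts, while the percentages are per promoter. Nr5a2 lacks GATA cores at the start where it has CACCTG, and lacks CACCTG at the other. All of these are matches of letters, with no data here on binding.

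Of the 5 transcription factor genes, Ptf1a, Rbpjl and Nr5a2 rose in the pregnant islets and 0 fell at an adjusted p under 0.05 per the authors' deposited table. All 5 nonenzyme markers rose. Over all 19940 genes, 7.57% were called higher and 4.15% lower by the same rule. At least 8-fold, a log2 ratio of 3 or more, was reached by 7 of the 10 genes, Ptf1a, Rbpjl and the 5 nonenzyme markers, against 0.637% of all genes per the authors' deposited table. The median log2 ratio per the authors' deposited table was 1.00 for the 5 factors and 3.90 for the 5 markers, beside -0.02 over all genes. At an adjusted p under 0.01 per the authors' deposited table, 0 of the factors and 1 of the markers, Erp27, was called. The share of all genes at that level was not counted.

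**Figure D1:**
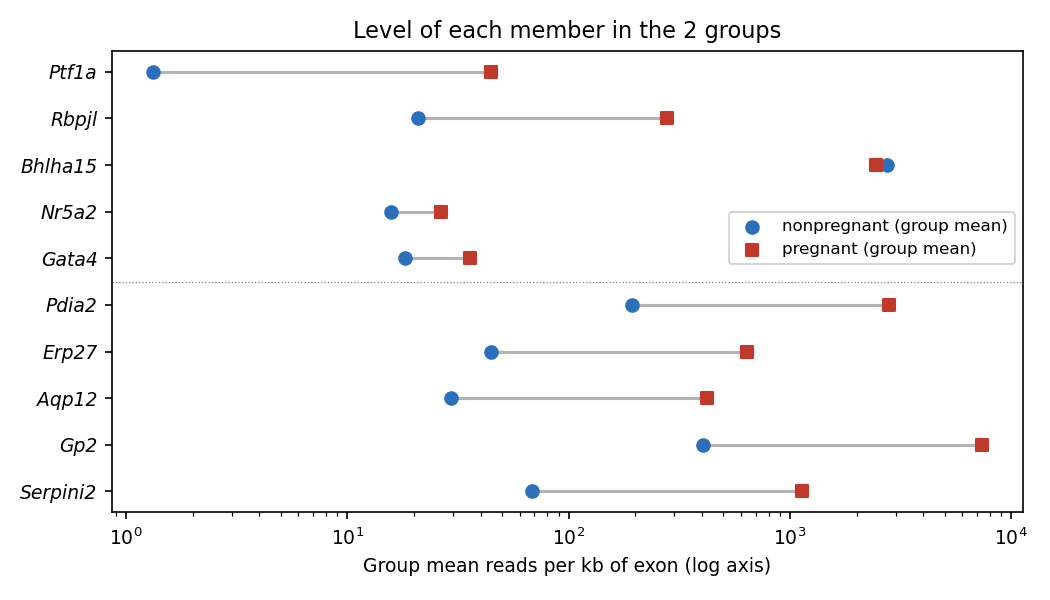
Group mean reads per kilobase of exon on a log axis for the 10 genes, with circles for nonpregnant and squares for pregnant islets, each 1 group mean without an error. Ptf1a, Rbpjl and the 5 nonenzyme markers shift far to the right, whereas Bhlha15 has nearly the same level in both groups.

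Ptf1a encodes the pancreas-specific subunit of PTF1 and lies on the plus strand of chromosome 2 at 19445663 to 19447501 (GRCm38). Its authors' mean was 2 reads in nonpregnant and 67 reads in pregnant islets. It rose 22.94-fold per the authors' deposited table, at an adjusted p of 0.0143. With so few nonpregnant reads the ratio depends on what is added to both means: its log2 is 4.52 per the authors' deposited table, 4.79 with 0.5 reads added and 3.40 with 5 reads added. Its deposited ratio is the largest of the 10 genes, but with 5 reads added it is the lowest of the 7 genes with a log2 ratio of at least 3. Without any added read, the 95% exact counting interval of the ratio ran from 15.5 to 94.6, wide because of the few nonpregnant reads, and it includes the ratio of Gp2. This interval covers counting error and not the spread between samples. An antisense gene, Ptf1aos, overlaps Ptf1a, and reads of the pair cannot be told apart if strand was not used in counting.

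Rbpjl, the acinar form of the third PTF1 subunit, lies on the plus strand of chromosome 2 at 164403141 to 164415448. The authors' means were 51 and 681 reads in nonpregnant and pregnant islets, and the gene rose 13.46-fold per the authors' deposited table, at an adjusted p of 0.0402. This adjusted p was the largest among the 8 genes that rose. The counting interval of its ratio was 11.6 to 16.2. Matn4 overlaps Rbpjl on the opposite strand, with authors' means of only 5 and 29 reads.

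The ubiquitous subunits of PTF1 showed no such ratio. Rbpj, the form of the RBPJ family used by Notch signalling in most cells, had authors' means of 2986 nonpregnant and 2734 pregnant reads, a fold of 0.94 per the authors' deposited table, at an adjusted p of 0.771. The E protein genes Tcf3, Tcf4 and Tcf12 stood at 0.94, 1.02 and 0.94 per the authors' deposited table, and 0 of these 4 partner genes was called at an adjusted p under 0.05, or at an unadjusted p under 0.05. Per kilobase of exon, the level of Rbpjl was 0.0496 of that of Rbpj in nonpregnant and 0.724 of it in pregnant islets. The pair of RBPJ genes was thus nearer to equal levels in the pregnant mean, through Rbpjl. These quotients depend on the exon lengths used, 2.456 kb for Rbpjl and 7.138 kb for Rbpj. In reads, Rbpjl stood at 681 against 2734 for Rbpj in the pregnant mean.

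Nr5a2 encodes a nuclear receptor (chromosome 1, minus strand, 136842571 to 136960448). Its authors' means were 88 reads in nonpregnant and 148 in pregnant islets, and it rose 1.71-fold per the authors' deposited table, at an adjusted p of 0.0205. Gata4 (chromosome 14, minus strand, 63198922 to 63271692) had authors' means of 71 and 140 reads. Its fold of 2 did not pass per the authors' deposited table (p = 0.0372, adjusted p = 0.187). Both folds were far under those of Ptf1a and Rbpjl, and whether they differ from them by more than the spread between samples was not tested, because no values per sample were used. In reads, however, the pregnant mean exceeded the nonpregnant mean by 65 for Ptf1a, 60 for Nr5a2 and 69 for Gata4, with counting standard errors of 4.8, 8.87 and 8.39. In reads not divided by length, the differences of these 3 genes therefore lay within counting error of each other. Their nonpregnant means were 2, 88 and 71 reads. Per kilobase of exon the added reads were 43.1 for Ptf1a, 10.8 for Nr5a2 and 17.7 for Gata4, so the likeness did not hold per length. This comparison of added reads was chosen after seeing the data. Gata6, the relative of Gata4 in the pancreas, had authors' means of 1311 and 1302 reads (fold 1.02 per the authors' deposited table, adjusted p = 1), and the level of Gata4 per kilobase was 0.0508 of that of Gata6 in nonpregnant and 0.101 in pregnant islets.

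Bhlha15 lies on the plus strand of chromosome 5 at 144190286 to 144194441 and had by far the most reads of the 5 factors. Its authors' mean was 9570 reads in nonpregnant and 8551 in pregnant islets, a fold of 0.91 per the authors' deposited table (p = 0.4, adjusted p = 0.768). Per kilobase its level was 2739 in nonpregnant islets, higher than that of the 9 other genes and above 91.2% of all genes with a length. It was 2447 in pregnant islets. Relative to Ptf1a, the level of Bhlha15 per kilobase was 2065 times as high in nonpregnant and 55.1 times as high in pregnant islets. The digestive enzyme genes together took 0.123% of all reads in those nonpregnant islets.

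A list of 5 genes that BHLHA15 is known to activate in acinar cells was set beside it. Rab3d, a small GTPase of secretory granules, Rab26, another granule GTPase, and Copz2, a vesicle coat subunit, rose 1.94-fold, 1.82-fold and 1.42-fold per the authors' deposited table, at an adjusted p of 3.4e-18, 0.0086 and 0.000121. Gjb1, the connexin of acinar gap junctions, had a fold of 5.09 and Atp2c2, a secretory pathway calcium pump, 5.58 per the authors' deposited table, with adjusted p of 0.253 and 0.0511. The authors' means were 13 and 67 reads for Gjb1, and 6 and 37 for Atp2c2. Thus 3 of these 5 genes rose and 0 fell, each of the 3 by less than 2-fold, with Bhlha15 itself not called.

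The 5 nonenzyme markers rose by similar factors, from 14.32-fold to 18.53-fold per the authors' deposited table. Gp2, the main membrane glycoprotein of zymogen granules (chromosome 7, minus strand, 119442537 to 119459285), went from 810 to 14666 reads in the authors' means. It rose 18.53-fold per the authors' deposited table, at an adjusted p of 0.0195, and had the highest level of the 10 genes in pregnant islets, 7340 reads per kilobase, up from 405. Serpini2, a serpin protease inhibitor made in the exocrine pancreas (chromosome 3, minus strand, 75242370 to 75270078), went from 96 to 1599 reads and rose 16.91-fold per the authors' deposited table, at an adjusted p of 0.0158. These were the highest ratios among the markers.

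Pdia2 encodes the pancreatic protein disulfide isomerase, a folding enzyme of the endoplasmic reticulum (chromosome 17, minus strand, 26195999 to 26199087). The authors' means were 332 and 4840 reads, and it rose 14.87-fold per the authors' deposited table, at an adjusted p of 0.0152. Erp27, a noncatalytic relative that binds the isomerase encoded by Pdia3 (chromosome 6, minus strand, 136907311 to 136922180), went from 46 to 658 reads and rose 14.47-fold per the authors' deposited table, at an adjusted p of 0.00832. Aqp12, an intracellular aquaporin of acinar cells (chromosome 1, plus strand, 93006334 to 93012269), went from 32 to 461 reads and rose 14.32-fold per the authors' deposited table, at an adjusted p of 0.0183. The counting intervals of the ratios were 14 to 15.9 for Pdia2, 12.3 to 17.5 for Erp27 and 12 to 18.3 for Aqp12, so counting error alone does not separate these 3 genes.

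Relatives of the markers had smaller ratios. Of 15 other genes of disulfide bond formation in the endoplasmic reticulum, 2 rose and 0 fell, with a median log2 ratio of 0.14 per the authors' deposited table. The 2 were P4hb and Erp29, at 1.41-fold and 1.34-fold per the authors' deposited table, and Pdia3, the partner of Erp27, stood at 1.13 (adjusted p = 0.289). Per kilobase, Pdia2 had 0.00656 of the level of P4hb in nonpregnant and 0.0695 in pregnant islets. Among 10 other aquaporin genes, 3 rose and 0 fell per the authors' deposited table. Aqp4, a plasma membrane water channel, rose 4.49-fold (adjusted p = 1.95e-79 per the authors' deposited table) and had more reads than Aqp12 in both groups, with authors' means of 1516 and 6648. Aqp7 rose 1.77-fold and Aqp8 3.26-fold per the authors' deposited table, the latter from a mean of 7 reads. Serpini1, which encodes neuroserpin, rose 1.52-fold per the authors' deposited table, at an adjusted p of 3.87e-06, against 16.91-fold for Serpini2. It was 1 of 2 called, with Serpinb6a, among 9 serpin relatives and chromosomal neighbours, of which 0 fell.

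A list of 8 genes for SNARE proteins, a syntaxin-binding protein and Rab GTPases of granule fusion (Vamp8, Vamp2, Stx3, Stx2, Stxbp2, Snap23, Rab27a and Rab27b) was set beside the zymogen granule marker Gp2. Of these 8 genes 0 was called at an adjusted p under 0.05 and 2 had an unadjusted p under 0.05 per the authors' deposited table. Their folds ran from 0.83 to 1.19 per the authors' deposited table. Further acinar genes that encode no digestive enzyme were mostly higher. Of 13 such genes, 11 rose and 0 fell, with a median log2 ratio of 3.63 per the authors' deposited table. Dmbt1, Zg16 and Klk1 rose 15.55-fold, 15.37-fold and 16.38-fold, whereas Gatm, which encodes the first enzyme of creatine synthesis, rose 2.27-fold per the authors' deposited table, from a nonpregnant mean of 5669 reads.

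**Figure D2:**
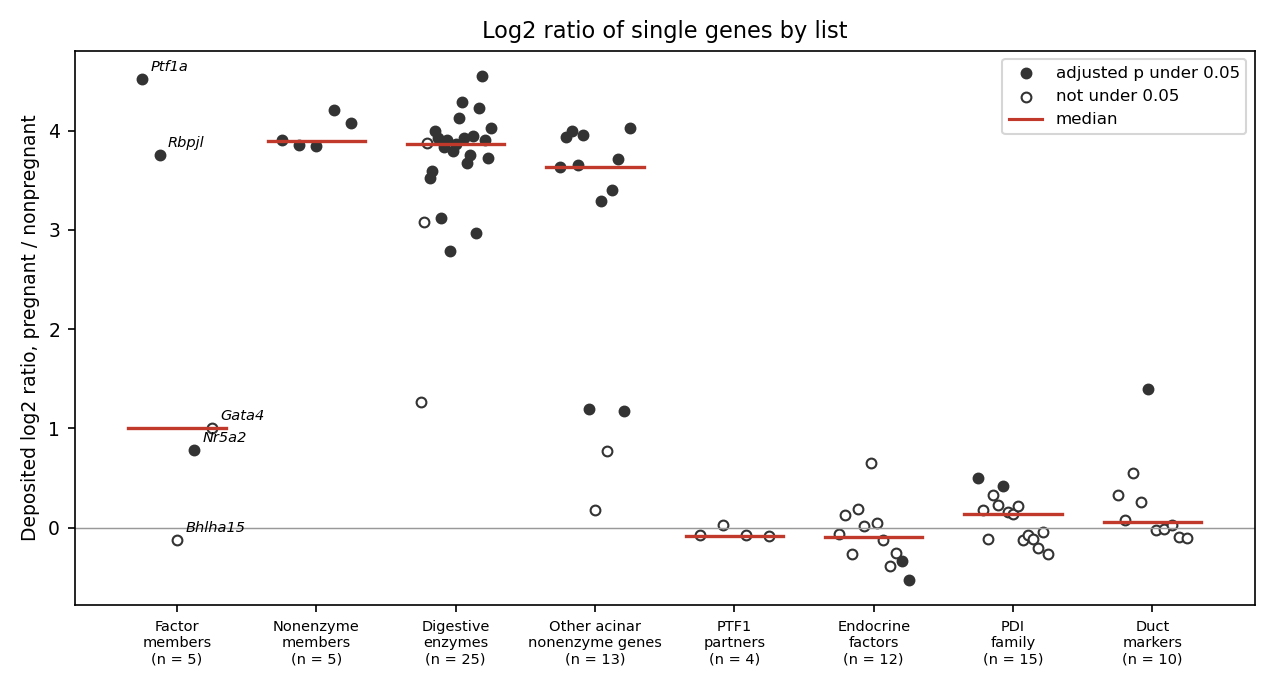
Log2 ratio of pregnant over nonpregnant for each gene per the authors' deposited table, by list, with filled points for an adjusted p under 0.05, open points for the rest and a bar at the median. The 5 nonenzyme markers, Ptf1a and Rbpjl sit among the digestive enzymes, while Nr5a2, Gata4 and Bhlha15 lie between -0.13 and 1.00.

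The ratios were then set beside those of the digestive enzyme genes. Of 25 such genes in the table, 22 rose and 0 fell, with a median log2 ratio of 3.86 and folds from 2.41 to 23.37 per the authors' deposited table. The amylase genes Amy1, Amy2a4 and Amy2a5 were the 3 that did not pass, and Amy2a5 is listed at 0 in nonpregnant islets. Ctrb1, Pnlip, Cela2a and Cpa1, the 4 with the most reads, rose between 12.05-fold and 15.11-fold per the authors' deposited table. Summed over the 25 enzyme genes, the authors' means were 103715 reads in nonpregnant and 1459019 in pregnant islets, which is 0.123% and 1.66% of all reads and a ratio of 14.1. In islets picked by hand, more acinar cells and more acinar RNA per cell cannot be told apart. How far carried-over acinar tissue enters the values of the 10 genes was not tested.

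Per 100000 enzyme reads, Rbpjl, Erp27, Aqp12 and Pdia2 were nearly the same in both groups, whereas Serpini2 and Gp2 were somewhat higher in the pregnant mean. Rbpjl had 49.2 reads in nonpregnant and 46.7 in pregnant islets on this scale, Erp27 44.4 and 45.1, Aqp12 30.9 and 31.6, and Pdia2 320 and 332. The quotient of the pregnant over the nonpregnant value was 0.949 for Rbpjl and lay between 1.02 and 1.04 for Erp27, Aqp12 and Pdia2. It was 1.18 for Serpini2 and 1.29 for Gp2. The counting intervals of their ratios, 15.2 to 19.3 and 17.8 to 19.3, lay above the summed enzyme ratio of 14.1. These intervals include the scaling factor of 1.02, and the 14.1 does not. Both genes lay within the folds of single enzymes, which reached 23.37 for Try5 per the authors' deposited table. For Ptf1a the quotient was 2.38, from 1.93 to 4.59 reads per 100000 enzyme reads, and rests on a nonpregnant mean of 2 reads. The other 3 factors were lower relative to enzymes in the pregnant mean, with quotients of 0.12 for Nr5a2, 0.14 for Gata4 and 0.0635 for Bhlha15. Group means allow no sample error for these quotients.

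**Figure D3:**
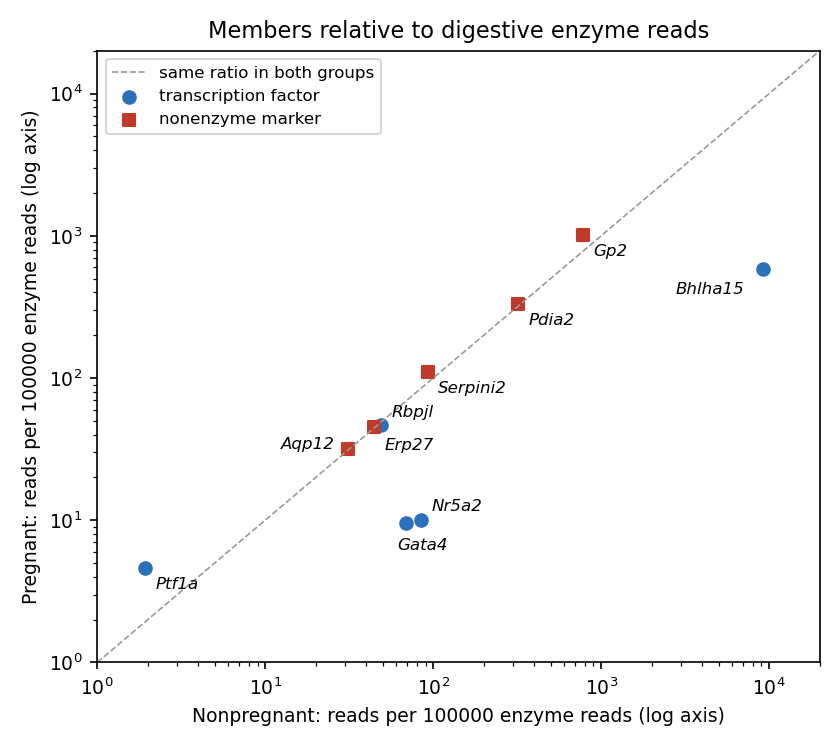
Reads of each gene per 100000 digestive enzyme reads in pregnant against nonpregnant islets, both on log axes, with circles for transcription factors, squares for nonenzyme markers and a dashed line where both groups have the same value. Rbpjl, Erp27, Aqp12 and Pdia2 lie on or next to the line, Serpini2, Gp2 and Ptf1a above it, and Nr5a2, Gata4 and Bhlha15 below it.

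Factors shared between acinar and hormone cells or their progenitors did not share the high ratios of Ptf1a and Rbpjl. Of 13 such genes 2 rose and 1 fell per the authors' deposited table, with a median log2 ratio of 0.14. Xbp1, a factor of the unfolded protein response, and Mnx1 rose 1.36-fold and 1.84-fold, Foxa2 fell to 0.8, and Pdx1 and Hnf4a stood at 1.14 and 1.1 per the authors' deposited table without passing. Of 12 endocrine transcription factors 0 rose and 2, Irx2 and Hhex, fell to 0.79 and 0.69 per the authors' deposited table.

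Markers of other cells near islets were also counted, beside 22 of 25 enzyme genes higher and 7.57% of all genes higher. Of the duct markers 1 of 10 rose (Muc1, 2.64-fold per the authors' deposited table), and their summed share of reads was 0.0321% in nonpregnant and 0.0314% in pregnant islets. The other lists, per the authors' deposited table, had 1 of 10 stellate and fibroblast markers higher, 0 of 8 endothelial, 1 of 8 macrophage and 0 of 9 plasma and B cell markers. In lists this short, counts of 0 or 1 higher gene lie near the share of all genes. In all 5 lists 0 genes fell. Summed shares of reads went from 0.0152% to 0.0159% for stellate, 0.0378% to 0.036% for endothelial, 0.00848% to 0.0121% for macrophage and 0.00235% to 0.00227% for plasma and B cell markers, and 0 of these markers had a mean of 0. These sums, and that of the duct markers, rest largely on single genes. Krt7 made up 15400 of 27089 duct reads in nonpregnant and 15895 of 27498 in pregnant islets. Rgs5 made up 10383 of 13959 stellate reads in pregnant islets, while the median log2 ratio of that list was -0.22 per the authors' deposited table. C1qa, which was not called, went from 3195 to 6370 reads while all 8 macrophage markers together went from 7161 to 10630. The plasma and B cell share was lower in pregnant islets, although the summed reads were 1982 in nonpregnant and 1992 in pregnant islets. In that list Prdm1 went from 722 to 481 reads (not called), while the median log2 ratio was 0.37 per the authors' deposited table. The islet hormone genes Ins2, Ins1, Gcg, Sst and Ppy took 19.4% of reads in nonpregnant and 21.8% in pregnant islets, with a median log2 ratio of -0.17 per the authors' deposited table. Ins1 rose 1.55-fold, and Ins2 stood at 1.18, Gcg at 0.72, Sst at 0.87 and Ppy at 0.89 without passing, per the authors' deposited table.

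By level per kilobase, the order in nonpregnant islets was Bhlha15, Gp2, Pdia2, Serpini2, Erp27, Aqp12, Rbpjl, Gata4, Nr5a2 and Ptf1a. Rbpjl, Gata4 and Nr5a2 were neighbours there at 20.8, 18.2 and 15.8 reads per kilobase, and Ptf1a was last at 1.33. In pregnant islets Gp2 and Pdia2 stood before Bhlha15, at 7340, 2812 and 2447 reads per kilobase, and Ptf1a stood before Gata4 and Nr5a2, at 44.4, 35.9 and 26.6. Which neighbours differ by more than the spread between samples is not known. Ptf1a was in the lowest part of all genes with a length in both groups, at percentile 9.5 in nonpregnant and 29.9 in pregnant islets.

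Among genes outside every list with at least 20 reads in both group means and an adjusted p under 0.05, the 5 with a ratio nearest to the median of the 10 genes, 3.85 on the log2 scale, were Reg3d, Neb, Reg1, Tff2 and Gbp8. Their log2 ratios ran from 3.77 to 3.98 per the authors' deposited table. Reg3d and Reg1 encode secreted lectins of the exocrine pancreas and Tff2 a trefoil peptide, while Neb encodes a muscle protein and Gbp8 a guanylate-binding protein. Likeness here means the ratio of 2 group means only.

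**Figure D4:**
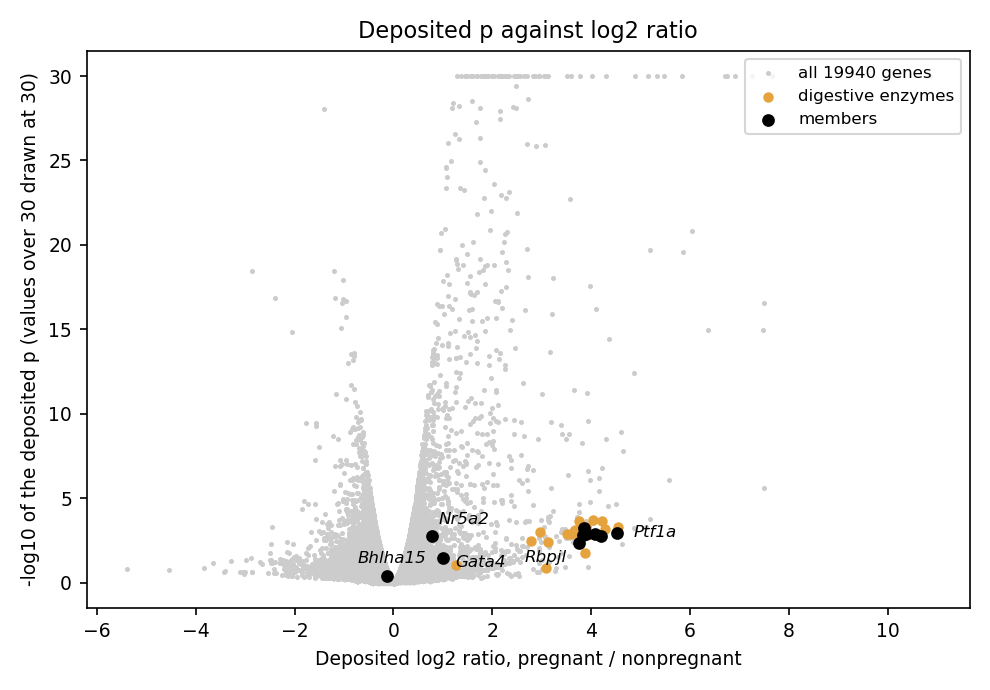
Minus log10 of the deposited p against the deposited log2 ratio for all 19940 genes (grey), digestive enzymes (orange) and the 10 genes described (black). The 7 genes with a log2 ratio of at least 3 sit within the enzyme group at modest p, below most other genes with rises of that size.

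The 7 genes with a log2 ratio of at least 3 had p between 0.000579 and 0.00443 per the authors' deposited table. Of 29 enzyme and other acinar genes that rose with such a ratio, 0 had a p under 1e-04 per the authors' deposited table. Among the 91 remaining genes that rose with such a ratio, 63 had a p under 1e-04 per the authors' deposited table. These listed acinar genes had large ratios with comparatively large p. The remaining genes are not all from outside the exocrine pancreas. They include the lectin genes Reg3d (p = 5.64e-09) and Reg1 (p = 6.51e-05), per the authors' deposited table. For comparison, Rab3d had p = 1.88e-20 at a fold of 1.94 per the authors' deposited table.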

How the data were processed

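Islet RNA of 3 pregnant and 3 nonpregnant samples was sequenced after a TruSeq library preparation, per the labels' protocols. TopHat2 2.0.12, TopHat, Bowtie, HTSeq 0.5.3p3 and the build GRCm38 are named, without their roles, per the submitters' processing notes. The authors deposited, per the file headers, a mean read count per gene and group, a fold (linear ratio), its log2 and a p-value with its adjusted form. Their test, strand setting and scaling are not given in the sources used here. Whether each sample is 1 animal is not stated.

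Of 19963 lines, 21 genes repeated and were counted once. Summed mean reads were 87654449 in pregnant and 84493872 in nonpregnant islets. The deposited log2 ratio exceeded that of the means by a median of 0.04, a factor of 1.02, applied to the counting intervals. Benjamini-Hochberg values recomputed over all genes differed from the deposited ones by at most 0.00203. Calls use the deposited adjusted p under 0.05 over all genes.

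Counting intervals are 95% Clopper-Pearson on 3 times the means, which assumes 3 samples and unscaled reads. Reads per kilobase use exons of protein-coding transcripts in GENCODE M21 (GRCm38). That annotation held 96.6% of the gene IDs, but only 17128 genes had such exons and so a length. Percentiles are taken over those genes. Promoters are RefSeq's (GRCm38.p6).

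The members and lists were chosen with earlier results of these data known. Besides the 10 genes, the planned rule was to name the 4 genes of each list with the most reads (all of lists with up to 5). It also covered the 5 genes in no list nearest in log2 ratio to the median of the 10. These 5 were taken among genes with both means at least 20 reads and an adjusted p under 0.05. For the lists the rule was followed only in part. The endocrine factors, for example, were named as called exceptions and not by reads. Others were named after their values were seen, as called or uncalled exceptions, relatives or full lists. Scripts were tested on simulated data. Python 3.11.15, pandas 2.3.3, numpy 2.4.6 and scipy 1.17.1 were used.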

Additional observations from a re-analysis of the deposited data

How the results depend on the processing

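At an adjusted p under 0.01 the factors called higher went from 3 to 0 and the nonenzyme markers from 5 to 1, and with Bonferroni adjustment over all genes both counts were 0. With genes of at least 10 mean reads adjusted again, the counts stayed at 3 and 5, and at an unadjusted p under 0.05 they were 4 and 5. Ptf1a passes that filter only through its pregnant mean, so its place in the count is no independent check. At an unadjusted p under 0.05, 4418 of all 19940 genes passed in either direction. The share of all genes was not counted at the other settings above. Counts of lower genes among the 10 were 0 in each of these settings. The log2 ratios of the 10 genes kept their direction in 40 of 40 alternatives of scaling and pseudocount, between 3.40 and 4.79 for Ptf1a and between -0.22 and -0.13 for Bhlha15. Changes of scale and pseudocount this small could not reverse the large ratios, so the kept direction is no test of them. In 4 of the 40, for Gp2 and Bhlha15, the ratio moved by more than its counting error. Scaling to summed mean reads gave a median of 3.80 for the digestive enzymes, and the median over enzymes gave a quotient of 0.0623 for Bhlha15. Added reads were compared only after seeing the data, and alternatives of scaling put those of Nr5a2 at 56.7 and 62.1 and of Gata4 at 66.3 and 70.7. No paired analysis was possible because the deposited columns are group means, and for the same reason no sample could be left out in turn. Few nonpregnant reads limit the ratio of Ptf1a.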
